A study of Mus musculus with 4 samples.

Results

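The regions described here are 1141 short clusters of RNA 5′ ends within mouse repeats that were detected in 2-cell and 8-cell embryos and were not called in oocytes. They were picked from 259863 clusters built on the pooled read starts of 11 sequencing runs, of which 11691 were called in at least 1 stage. A read start is the first base of a 25-base read on its own strand, and neighbouring starts of 1 strand with gaps of up to 20 bp were joined. A cluster counted as on in a stage when at least 2 of the stage's runs had 2 or more lines in it, a line being 1 read placement in the deposited files. Chromosomes X, Y and M and 1 window of 10000 bp on chromosome 17 were left out before clusters were formed. Of the 1141 members, 86 were also on in the blastocyst and 1055 were not. These values chose the members, so that their high 2-cell and 8-cell and low oocyte levels are given as a description and not as a finding.

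The material was fully grown oocytes, 2-cell embryos at 48 h, 8-cell embryos at 68 h and blastocysts at 92 h, all from F1 crosses between C57BL/6J and CBA/H mice with no treatment or mutation named. Capped 5′ ends were profiled by nanoCAGE, a cap-selecting method for small amounts of RNA. Each stage is 1 sample, read in 3 runs (2 runs for the 2-cell embryo), and whether runs came from separate embryos is not stated. Without replicate samples no p-value was computed, and no stage difference was tested.

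In mouse development the oocyte stops transcribing before ovulation, and the embryo at first lives on RNA stored by the mother. The main wave of embryonic transcription starts at the 2-cell stage, when many long terminal repeats of endogenous retroviruses and other transposons act as promoters. Some of these are silent again by the 8-cell stage and others go on into the blastocyst, where the inner cell mass and the trophectoderm separate. A cluster of capped starts inside a repeat can thus mark a promoter that the embryo itself uses. The read files give positions in mm9 and no repeat names, and the gene annotation and promoter sequences at hand are in another build and were not used. No gene, exon or repeat is therefore assigned to a cluster, and no sequence is shown.

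Runs differed in depth and in how they related to each other. They held between 33473 lines (blastocyst run 1.2) and 1375332 lines (oocyte run 1.2), and 2 lines are 0.00597% of the former and 0.000145% of the latter. 8-cell run 2 stood apart from 8-cell runs 1.1 and 1.2. It had 1155992 lines against 51434 and 82454, and a median read score of 54 against 16 and 28. Read names give 2-cell run 2 and 8-cell run 2 the same run label. 8-cell run 1.2 and oocyte run 1.2 also share a label, as do oocyte runs 1.1 and 2 and blastocyst run 1.2. Only these labels were compared, so that a shared label does not establish 1 sequencing run. Values are therefore given run by run, and with and without 8-cell run 2 where they rest on it.

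The members took a large share of reads in 4 runs. They held 25.3% and 23.6% of lines in 2-cell runs 1 and 2, 35.03% and 37.1% in 8-cell runs 1.1 and 1.2, and 1.26% in 8-cell run 2. The values were 0.0118%, 0.00538% and 0.131% for the oocyte, and blastocyst runs 1.1, 1.2 and 2 had 1.60%, 2.53% and 20.8%. The 8-cell mean was 24.5% with all runs and 36.1% without run 2, and the blastocyst mean was 8.32% with all runs and 2.07% without run 2. Among runs that share a label, 2-cell run 2 had 23.6% against 1.26% in 8-cell run 2. 8-cell run 1.2 had 37.1% against 0.00538% in oocyte run 1.2, and blastocyst run 1.2 had 2.53% against 0.0118% and 0.131% in oocyte runs 1.1 and 2. The rule itself keeps oocyte lines few in members, so that the gaps to the oocyte are no finding. 8-cell run 2 thus lay below both 2-cell runs, whereas 8-cell runs 1.1 and 1.2 lay above them. The part that depth or read score has in this was not tested. The median score of member lines was 31 in 8-cell run 2, 16 in run 1.1 and 29 in run 1.2.

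**Figure D1:**
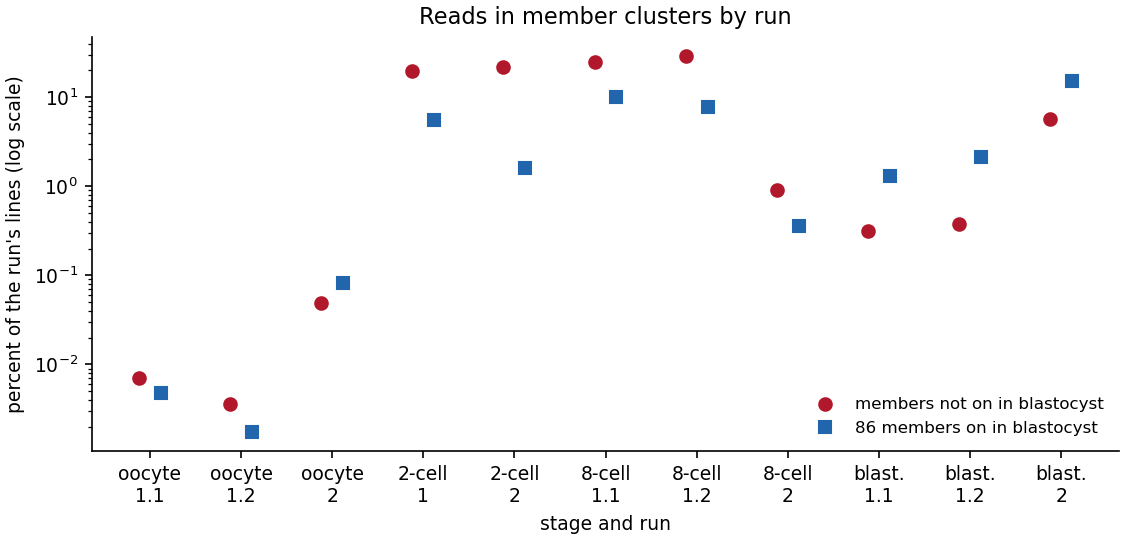
Percent of each run's lines that fall in the members, on a log axis, by stage and run. Circles are the 1055 members not on in the blastocyst and squares the 86 that are. 8-cell run 2 lies at 0.904% and 0.357%, far under 8-cell runs 1.1 and 1.2, and blastocyst run 2 lies above the other blastocyst runs.

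Most members were called at the 8-cell stage without any need for run 2. In 562 of the 1141 (49.3%) all 3 8-cell runs had 2 or more lines, and in 227 (19.9%) only runs 1.1 and 1.2 had. The other calls needed run 2, with run 1.2 in 300 members and with run 1.1 in 52. Of the 2655 clusters on in the 2-cell embryo and not in the oocyte, 43.0% were on at the 8-cell stage, a share that the rule itself sets. 194 members had no line in 8-cell run 1.1, 26 had none in run 1.2 and 133 had none in run 2.

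The threshold cuts through a continuum of weak clusters. 298 members had just 2 lines in their second-highest 8-cell run, with a median 2-cell share of 0.00341%. Just outside, 507 clusters on in the 2-cell embryo and not in the oocyte had 1 line there, and their median 2-cell share was 0.00258%. On the oocyte side 983 members had no oocyte line at all, and 92 had 2 or more lines in exactly 1 oocyte run. 727 of 2121620 oocyte lines lay in members, 621 of them in run 2, and the 5 members with the most held 265. For a member with no oocyte line the depth of all 3 runs allows a share of up to 0.000141%, for counting error only.

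Levels of single members spanned more than 3 orders of magnitude. The level used here is the mean of the 2-cell and the 8-cell stage means, in percent of lines. Its median was 0.0065% and its quartiles were 0.00343% and 0.0136%, from a lowest value of 0.000894% to a highest of 3.13%. 35 members reached 0.1% and 384 reached 0.01%. The first 10 members held 32.4% of the summed level and the first 100 held 64.4%. A few positions thus carried much of the signal, and the typical member had a median of 16 and 9 lines in the 2-cell runs and 3, 6 and 4 lines in the 8-cell runs.

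**Figure D2:**
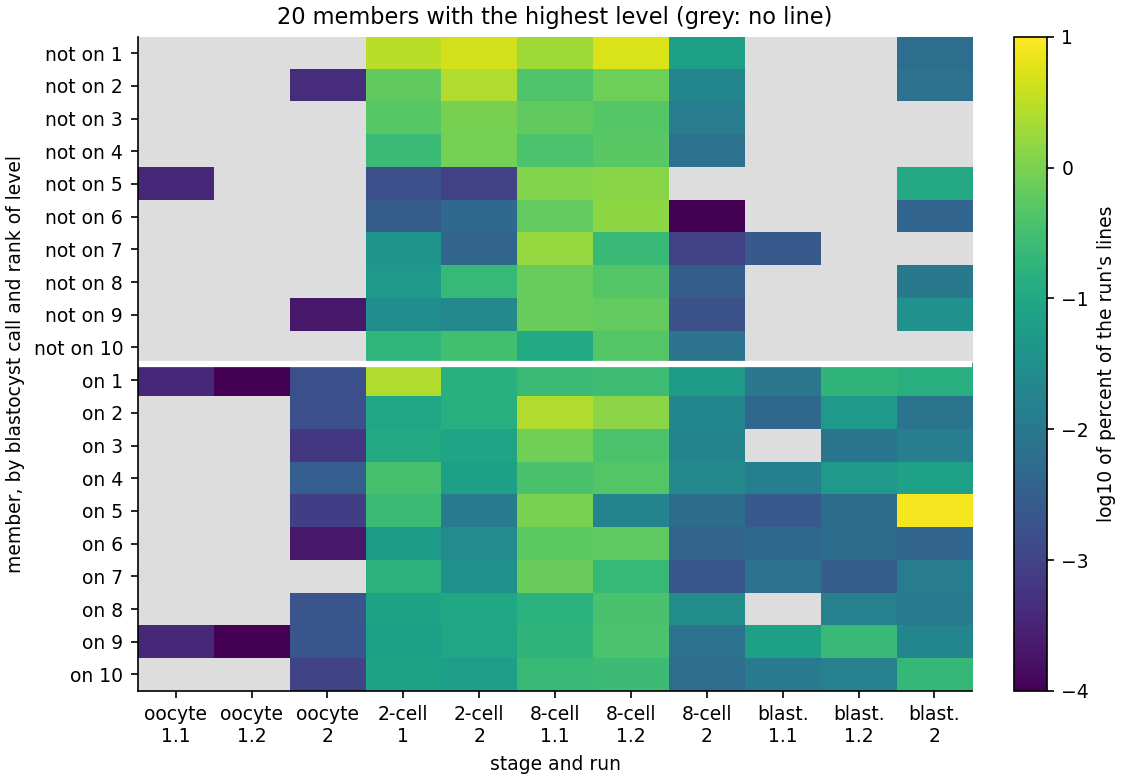
Share of each run's lines (log10 of percent, colour) in the 10 highest members not on in the blastocyst (top) and the 10 highest on in it (bottom), ranked by level. Grey cells have no line. Most oocyte cells are grey, and 8-cell run 2 is below runs 1.1 and 1.2 in all 20 rows, with 0 lines at rank 5 of the upper panel.

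The member with the highest level was on the plus strand at chr8:106314888-106314898. It took 3.08% and 4.63% of lines in 2-cell runs 1 and 2, 1.97%, 5.2% and 0.0671% in 8-cell runs 1.1, 1.2 and 2, and 0.00627% in blastocyst run 2. It had no line in any oocyte run or in blastocyst runs 1.1 and 1.2. The 2-cell runs lay inside the range of 8-cell runs 1.1 and 1.2. Its main start, the base with the most lines, was position 106314894 at both stages, with 49.3% of the 2-cell and 65.1% of the 8-cell lines.

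Among members not on in the blastocyst, the next 3 were high in both 2-cell runs and in 8-cell runs 1.1 and 1.2, and had few or no lines in the oocyte and the blastocyst. The one at chr5:111756039-111756048 on the plus strand took 0.606% and 2.57% in the 2-cell runs. The 8-cell runs had 0.428%, 0.792% and 0.0202%. The one at chr13:117807103-117807107 on the plus strand took 0.498% and 0.926%, then 0.597%, 0.471% and 0.0124%. The narrow cluster at chr2:27487631-27487634 on the minus strand spanned 4 bp and took 0.258% and 0.919%, then 0.377%, 0.52% and 0.00735%. The chr13 and chr2 clusters had no line in any oocyte or blastocyst run, and the chr5 cluster had 2 lines in oocyte run 2 and 7 in blastocyst run 2.

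Some further members were much higher in 8-cell runs 1.1 and 1.2 than in both 2-cell runs, and some of these passed with few 2-cell lines. The cluster at chr5:70672112-70672118 (plus strand) had 4 and 2 lines in the 2-cell runs. It had 591 and 1047 lines, 1.15% and 1.27%, in 8-cell runs 1.1 and 1.2, and 0 of 1155992 lines in run 2, which allows a share of up to 0.00026%. It also had 98 lines in blastocyst run 2. The cluster at chr2:11311370-11311375 (plus strand) had 7 and 11 lines in the 2-cell runs, 318 and 1161 lines in 8-cell runs 1.1 and 1.2, and 1 line in run 2. The 8-cell runs thus differed by orders of magnitude in these clusters. The clusters at chr2:129270953-129270969 and chr7:78661215-78661228, both on the minus strand, had 90 and 9 and then 66 and 47 lines in the 2-cell runs. In 8-cell runs 1.1, 1.2 and 2 the former had 833, 195 and 11 lines and the latter 351, 522 and 20. Of the remaining pair among the 10 highest not on in the blastocyst, chr9:86241935-86241940 (plus strand) took 0.0506% and 0.221% at the 2-cell stage and 0.68%, 0.456% and 0.00303% at the 8-cell stage. The cluster at chr7:68920288-68920299 (minus strand) took 0.195% and 0.307%, then 0.109%, 0.455% and 0.00787%.

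Members on in the blastocyst were 7.54% of the 1141 (exact 95% interval 6.07% to 9.22%, counting error only). Blastocyst starts helped to form the clusters, but the blastocyst call did not decide membership. Of all 11337 clusters on in the oocyte, the 2-cell or the 8-cell embryo, 2.22% were on in the blastocyst. The members' share depended on the settings. It was 2.95% for the 983 members with no oocyte line, 2.49% with lines of a score of at least 20, and 18.2% of the members formed from runs thinned to the smallest, and the 2.22% was not recomputed for these. With the main settings the share was 0.528% of the 1514 clusters on in the 2-cell embryo and neither in the oocyte nor at the 8-cell stage. It was 2.55% of the 1137 clusters on at the 8-cell stage and neither before, and 69.6% of the 92 clusters on in oocyte, 2-cell and 8-cell embryo. These groups differ in depth, and clusters are not replicates, so the differences were not tested. Among clusters with at least 100 lines over the 2-cell and 8-cell runs, 48 of 296 members (16.2%), 1 of 23 clusters on in the 2-cell embryo alone, 0 of 22 first on at the 8-cell stage and 59 of 76 on in all 3 stages were on in the blastocyst.

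The blastocyst call was more frequent at higher levels. With the members in 4 groups of 285 or 286 from the lowest to the highest level, 7, 13, 18 and 48 were on, or 2.46%, 4.56%, 6.32% and 16.8%. 549 of the 1141 members had no blastocyst line, at 40922, 33473 and 95702 lines in the 3 runs, and 295 members not on had 2 or more lines in run 2 alone. Of the 86 on in the blastocyst, 27 had 2 or more lines in all 3 runs, 13 in runs 1.1 and 1.2 only, 27 in runs 1.2 and 2, and 19 in runs 1.1 and 2. Without run 2 the share on was 3.51%. The blastocyst mean exceeded both the 2-cell and the 8-cell mean in 31 of the 86 members, and in 24 of them when blastocyst run 2 was left out. In 3 of the 86 all blastocyst runs lay below all 2-cell and 8-cell runs, and in 1 all lay above.

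The 10 highest members on in the blastocyst were picked by that call and by level, and describe single regions only. The cluster at chr9:3361146-3361164 on the plus strand took 2.57% and 0.151% of lines in the 2-cell runs. The 8-cell runs had 0.261%, 0.279% and 0.0574%. In blastocyst runs 1.1, 1.2 and 2 it took 0.00977%, 0.188% and 0.142%, so that its stage ranges overlapped. The cluster at chr17:83547219-83547225 on the minus strand took 0.0882% and 0.14%, then 2.49%, 1.35% and 0.0201%, and 0.00489%, 0.0508% and 0.00836% in the blastocyst. It was the highest member of 8-cell run 1.1. The cluster at chr4:53284254-53284269 on the plus strand had lines in every run, with 0.0663% and 0.0854%, then 0.179%, 0.377% and 0.00727%, and 0.0684%, 0.239% and 0.0199% in the blastocyst. The remaining 7 of these 10 lay on chromosomes 10, 7, 5, 9, 6, 15 and 2, with levels from 0.119% to 0.26%. Although not called in the oocyte, most of these 10 had a few oocyte lines. In oocyte runs 1.1, 1.2 and 2 the cluster at chr9:3361146-3361164 had 1, 1 and 8 lines. The chr17 cluster had 0, 0 and 8, and the chr4 cluster 1, 1 and 10. Of the 10, only the chr6 cluster had no oocyte line. All members on in the blastocyst together held 427 of the 727 oocyte lines in members.

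The high value of blastocyst run 2 rested in large part, but not only, on few positions. In that run 547 members had a line, against 134 and 138 in blastocyst runs 1.1 and 1.2, which had fewer lines in all. Members not on in the blastocyst held 5.67% of its lines, against 0.313% and 0.376% in runs 1.1 and 1.2. The cluster at chr5:88139998-88140006 on the plus strand held 8034 lines there, 40.3% of all member lines of that run, against 1 and 2 lines in blastocyst runs 1.1 and 1.2. It took 0.257% and 0.0109% in the 2-cell runs. The 8-cell runs had 0.999%, 0.017% and 0.0058%. The next by mean blastocyst share, chr13:94350959-94350973 on the plus strand, had 4301 lines in run 2 and 3 and 5 in runs 1.1 and 1.2. The third, chr14:93273141-93273147 on the plus strand, had 906 lines in run 2 and none in the others, and was not on. These clusters were high in 1 blastocyst run, and no other blastocyst run came near it.

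Between the 2-cell and the 8-cell stage the order of the runs depended on 8-cell run 2. A member was counted as higher or lower when its mean at one stage was 2 or more times that at the other and the runs of the stages did not overlap. With all runs 2 members (0.175%) were higher and 136 (11.9%) lower at the 8-cell stage, against 1.29% higher and 27.0% lower among all 3957 clusters on in either stage. Without 8-cell run 2, 281 of the 1141 members (24.6%) were higher and 112 (9.82%) lower, against 25.4% and 27.7% of the 3957. The 3957 include clusters on in only 1 of these stages, for which the on rule itself favours a difference. The median ratio of the members moved from 0.841 to 1.2, and that of all 3957 clusters from 0.711 to 0.987. All 112 that were lower without run 2 were lower with it. 8-cell run 2 lay below both 2-cell runs in 1113 members and below all 4 other runs in 889. 8-cell runs 1.1 and 1.2 both lay above both 2-cell runs in 327 members and both lay below them in 139. The members on in the blastocyst had a median ratio of 1.49 with all runs and 2.19 without run 2, and the 1055 others 0.807 and 1.15.

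**Figure D3:**
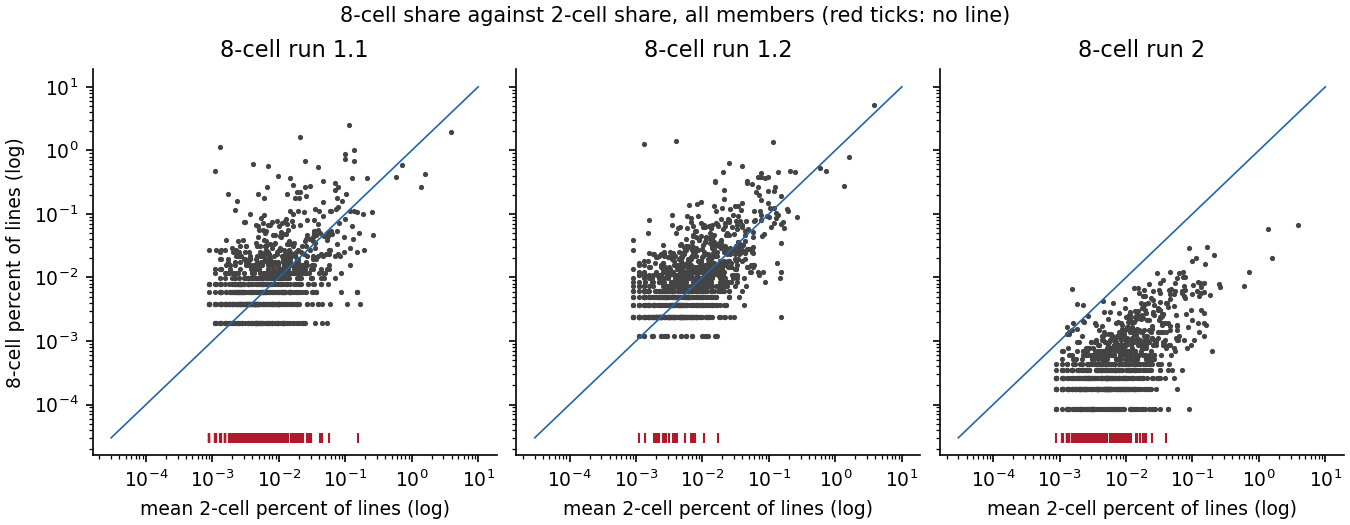
Share of lines of each member in 8-cell runs 1.1, 1.2 and 2 (y axes, log) against its mean 2-cell share (x axes, log). The line marks equal shares and red ticks mark members with no line in that run. Points scatter around the line in runs 1.1 and 1.2 and lie mostly under it in run 2, where 1113 of 1141 members are below both 2-cell runs.

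1 of the higher members had at least 100 lines over both stages. It lay at chr15:24714822-24714833 on the plus strand with 3 and 4 2-cell lines and 20, 65 and 22 8-cell lines, a ratio of 25.3. Its lowest 8-cell run, at 0.0019%, was level with the higher 2-cell run at 0.00189%, and it had 25 lines in oocyte run 2. The lowest ratio, 0.0297, belonged to chr11:6772201-6772206 on the plus strand with 13 and 116 2-cell lines and 0, 2 and 3 8-cell lines. Next came chr10:7524420-7524426 on the minus strand with 38 and 597 lines, then 3, 8 and 14, a ratio of 0.0375. The third, chr13:21914090-21914093 on the plus strand, had 83 and 574 lines, then 0, 2 and 191, a ratio of 0.0413, and 84 lines in oocyte run 2. Its 8-cell lines thus came almost all from run 2, and its ratio without that run was 0.00793. All 3 low ratios leaned on 2-cell run 2. Without it the chr11, chr10 and chr13 clusters had ratios of 0.163, 0.348 and 0.18, and with run 2 as the single 2-cell run 0.0164, 0.0198 and 0.0233. Without 8-cell run 1.2 the chr11 ratio was 0.00431 and the chr10 ratio 0.0237. Leaving out 8-cell run 1.1 gave 0.0446 for the chr11 and 0.062 for the chr13 cluster. The ratio of the chr15 cluster was 12.9 without 8-cell run 1.2.

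Read starts inside the members lay within a few bases. Their median width from first to last start was 6 bp (quartiles 4 and 9 bp, largest 57 bp), against 4 bp for all 11691 clusters on in any stage, 4 bp for the 1514 clusters on in the 2-cell embryo alone and 15 bp for the 92 on in oocyte, 2-cell and 8-cell embryo. Width grows with the number of reads, and these groups differ in it. Members on in the blastocyst had a median width of 10.5 bp and the others 6 bp. The main start held a median of 61.2% of a member's lines at the 2-cell stage and 63.1% at the 8-cell stage. For all clusters on in any stage these medians were 67.9% and 76.6%, above the members' values. For the 92 on in oocyte, 2-cell and 8-cell embryo they were 48.98% and 51.42%, below them. The main start of a cluster with 1 line in a stage holds 100% of it. The 2-cell median was 100% for the 7380 clusters on in the oocyte and not in the 2-cell or 8-cell embryo. These medians thus depend on the number of reads and do not compare how focused the sets are.

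The same base led at both stages in many members, a position that the rule did not use. The main start was identical in 655 of 1141 members (57.4%) and at most 1 base apart in 904 (79.2%), and it was more than 5 bases apart in 30. The width of a member limits these distances. With a width of 6 bp, the median, or less, main starts cannot lie more than 5 bases apart, and narrow members favour near starts. Among all 1233 clusters on in both stages 57.3% had the same main start, a number that includes the members, and among the 92 also on in the oocyte it was 56.5%. For pairs of single runs with 10 or more lines in both, the main start of 2-cell runs 1 and 2 was the same in 61.4% of 443 members. It was the same in 65.1% of 195 members for 8-cell runs 1.1 and 1.2, and in 53.5% to 70.1% for the 6 pairs of a 2-cell with an 8-cell run. For 8-cell run 2 with 8-cell runs 1.1 and 1.2 it was 59.3% of 118 and 67.4% of 181 members. The ranges for pairs within a stage and between these stages overlapped. Pairs with blastocyst run 2 lay below them, at 42.3% of 104 members with 2-cell run 1, 37.1% of 62 with 2-cell run 2 and 28.3% to 38.3% with the 8-cell runs. Whether this goes with its low median score of 15 was not tested, and 8-cell run 1.1 had a score of 16.

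**Figure D4:**
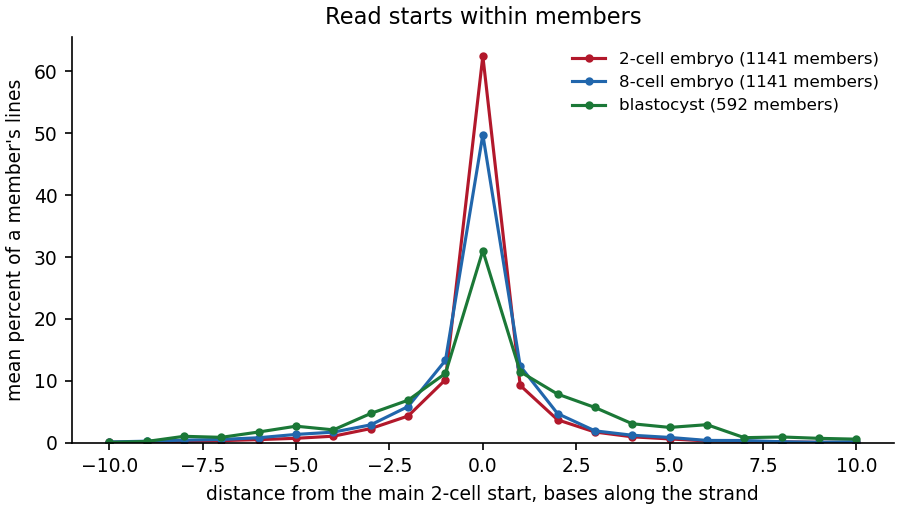
Mean percent of a member's lines at each base around its main 2-cell start, counted along the strand, for members with lines in each stage. The 2-cell profile peaks at 62.5% by construction, the 8-cell profile at 49.8% on the same base and the blastocyst profile at 31.0%, and all fall off within a few bases on both sides.

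Starts on the opposite strand lay over the same bases. Here the main start of a member is the base with the highest share over the 2-cell and 8-cell stages together, and that of another cluster the one over all runs. In 543 of 1141 members (47.6%) at least 1 other-strand line of any run overlapped the 25 bases read from the main start. The share was 48.8% of all 11691 clusters on in any stage, and it varied between sets. Among oocyte, 2-cell and 8-cell embryo, it was 56.5% for clusters on in the oocyte alone and 27.74% for the 2-cell embryo alone. It was 27.97% for the 8-cell stage alone and 85.87% for all 3. With at least 100 lines in all, it was 58.2% for members and, in the same order, 78.4%, 40%, 35.5% and 87.5%. These sets differ in depth, and the differences were not tested. Counted along the member's strand, the most frequent distance from the main start to an opposite start was 24 bases, found in 246 members, where a read covers exactly the same 25 bases from the other end. 95.1% of the 25537 overlapping opposite lines lay 16 to 28 bases from the main start, whereas 42 lines lay 1 to 48 bases upstream of it. Farther out, 37 lines lay 49 to 200 bases upstream and 3286 lay as far downstream. The latter included 1076 lines at 86 bases and 1301 at 87 bases, each distance found in 1 member. Distances are not given here for other clusters, so that the peak is not shown to be particular to the members. An opposite start within 48 bases upstream was found in 18 members (1.58%), and in 16.4% of the 10550 other clusters on in any stage. That higher share came with clusters on in the oocyte, at 22.1% of the 7380 on there and not in the 2-cell or 8-cell embryo and 31.5% of the 92 on in all 3 stages. It was 1.39% of the 1514 clusters on in the 2-cell embryo and 1.06% of the 1137 at the 8-cell stage alone of these 3, so that a low share was not particular to the members.

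**Figure D5:**
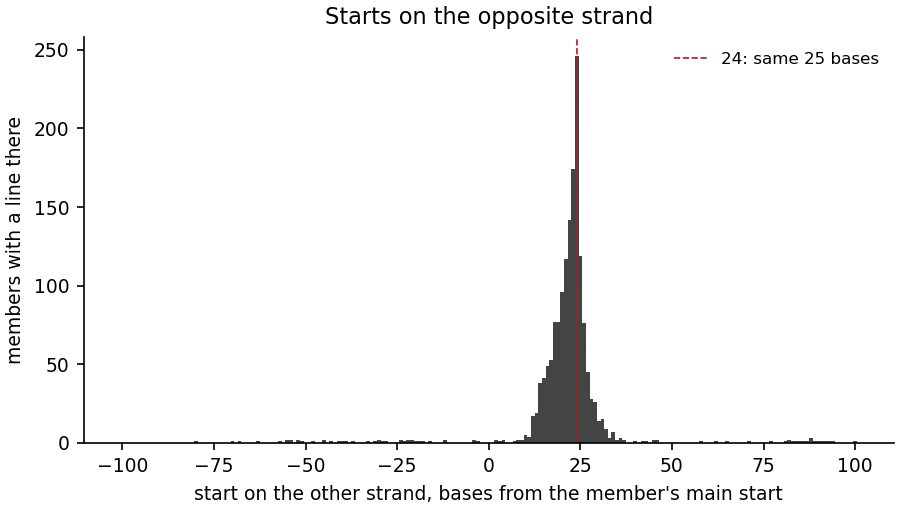
Number of members with at least 1 line on the other strand at each distance from the main start, counted along the member's strand. Nearly all lie between 10 and 40 bases downstream, with a peak of 246 members at 24 bases, marked by the dashed line.

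28 pairs of members, 56 clusters in all, covered each other in this way. Their main starts were 14 to 27 bases apart, exactly 24 in 9 pairs, and the minus start was always to the right of the plus start. The pair with the highest level had main starts 145845269 (plus) and 145845293 (minus) on chromosome 7, over both stages together. Taken by stage, the minus cluster at chr7:145845282-145845301 led at 145845289 in the 2-cell and 145845287 in the 8-cell embryo. The plus cluster of the pair had 447 and 105 2-cell lines and 8, 101 and 97 8-cell lines, and its minus cluster had 831 and 147, then 191, 387 and 264. The pair at 192982531 (plus) and 192982552 (minus) on chromosome 1 had 3 and 67 plus lines in 2-cell runs 1 and 2 against 74 and 17 minus lines. The strand with more lines was thus not the same in both 2-cell runs. In 14 of the 28 pairs the plus cluster had the higher level. No further member had an opposite-strand member within 1000 bp, and within 10000 bp there were 64 in all.

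Members were spread over the genome as single sites. 18 of the 1141 had another member on the same strand within 10000 bp and 2 within 1000 bp, and 593 (52.0%) lay on the plus strand. All 19 autosomes held members, from 30 on chromosome 19 to 89 on chromosome 1. Of the clusters on in the 2-cell embryo and not in the oocyte, between 29.9% (chromosome 16) and 49.2% (chromosome 12) per chromosome were members.

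The table of repeat families gives a view that the rule did not use, although it counts the same libraries. Of 11 main transposon families, 6 had a higher share of counts in every 2-cell and 8-cell run than in every oocyte run, and none was lower throughout, against 10 of all 47 families (21.3%) higher. Without 8-cell run 2 it was 7 of 11 and 13 of 47 (27.7%). The 6 were ERVL, the retroviral family with MERVL and its MT2 promoters, the old LINE family L2, the SINE families B2, B4 and B1 (listed as Alu), and the old SINE family MIR. ERVL had 0.403%, 2.30% and 1.60% of counts in oocyte runs 1.1, 1.2 and 2, and 5.96% and 13.6% at the 2-cell stage. Its 8-cell values were 6.56%, 6.39% and 8.29%. The gap was smallest for MIR, with 1.133% in 2-cell run 2 against 1.128% in oocyte run 2. L1, the active LINE family, joined them only without 8-cell run 2, at 30.1% and 14.7%, then 31.7%, 23.8% and 9.47%, over oocyte runs of at most 10.8%. 8-cell run 2 was the highest 8-cell run for ERVL and the lowest for L1. Which of the members lie in which family was not analysed here.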

How the data were processed

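NanoCAGE reads within repeats were available for 4 samples in 11 runs. The read files were deposited by the authors as 1 line per 25-base placement in mm9, per the submitters' processing notes, which also name CASAVA without version or role. The score of a line, from 1 to 99, was deposited by the authors without its scale. The sources used here do not give the aligner, the repeat annotation or how reads with several placements were treated, and no read name was found at 2 or more positions. The counts per repeat family and run were deposited by the authors, per the file headers.

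Starts were joined within 20 bp on each strand with Python 3.11.15 and pandas 2.3.3, and stages were called on as described. Exact repeats of a line, 1.64% to 4.34% per run, were kept. Shares are percent of all lines of a run, 33473 to 1375332, including those dropped before joining. A stage mean weights runs equally. Intervals are exact binomial (Clopper-Pearson, scipy 1.17.1). The joining and calling were run on simulated starts, as a check of the code only. Every run of an on stage there had enough lines for the rule and every other run too few. The rule therefore had to recover them, and weak clusters at the threshold were not tested. Members, groups and measures were chosen with earlier results of these data known. Clusters named are the 10 highest by level in each blastocyst group, up to 3 at each end of the 8-cell to 2-cell ratio among non-overlapping members with at least 100 lines, and the 3 highest in the blastocyst. The clusters of the opposite-strand pairs were chosen after their values were seen. Alternatives were another joining distance, line minimum, score minimum, depth, treatment of repeated lines, oocyte rule, number of runs, and leaving out each run.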

Additional observations from a re-analysis of the deposited data

How the results depend on the processing

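The 1141 members became 745 with 3 or more lines per run, 461 with 5 or more, 297 with runs thinned to the smallest and 586 when every run of a stage had to hold the cluster. They were 614 to 1675 when a run was left out, the lowest without 8-cell run 1.2 and the highest without 2-cell run 2, where run 1 decided alone. Thinning kept 270 of the 1141, and a score of at least 20 kept 801. The percent on in the blastocyst, 7.54%, was 2.49% with a score of at least 20, 18.2% with thinned runs, 2.95% with no line in any oocyte run, 5.63% when every run had to hold the cluster, and 3.51% to 10.9% with a run left out (4.73%, 4.03% and 3.51% without blastocyst runs 1.1, 1.2 and 2). The same main start, 57.4%, was found in 60.7% with 3 lines, 64.0% with 5, 63.6% with thinned runs, and 51.04% to 59.9% with a run left out. Members lower at the 8-cell stage, 136, were 88 with 3 lines, 52 with 5, 39 with thinned runs, 67 when every run had to hold the cluster, and 56 to 456 with a run left out, here with members formed anew (245 and 456 without 2-cell runs 1 and 2). Members higher, 2 of 1141, were 1 of 745 with 3 lines, 0 of 461 with 5, and 0 of 803 with a score of at least 20. They were 0 of 297 with thinned runs and 1 of 983 with no oocyte line. With a run left out they were 2 to 273, the highest being 273 of 789 without 8-cell run 2. It was 13 of 1301 and 11 of 1675 without 2-cell runs 1 and 2. Without 2-cell run 2 and 8-cell run 2, which share a run label, 1107 clusters were members, and 789 of the 1141 remained among them. Of the 1107, 510 were higher and 51.6% had the same main start. With a single 2-cell run left, runs that do not overlap are easier to obtain. No share over all clusters was computed for this setting. This alternative was chosen after seeing the data. The mean 2-cell share in members, 24.4%, was 17.96% with no line in any oocyte run and 20.7% to 29.1% with a run left out. With no line in any oocyte run the 8-cell share went from 24.5% to 15.3% and the blastocyst share from 8.32% to 2.08%. Their runs spanned 1.26% to 37.1% and 1.60% to 20.8%, a spread too wide to judge these moves by. With a run left out the 8-cell share ranged from 15.7% to 34.7% and the blastocyst share from 2.07% to 11.7%. The cause of these shifts was not tested, except that fewer lines or runs leave fewer clusters by construction. No named cluster counted higher or lower changed direction where a ratio was obtained. None was obtained for chr15:24714822-24714833 with thinned runs and for chr10:7524420-7524426 without both 2-cell run 2 and 8-cell run 2. With a score of at least 20 the runs of chr15:24714822-24714833 overlapped, at a ratio of 23.7. No paired analysis was possible because each stage is 1 sample and no test was made.

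Depth limits the blastocyst calls: 2 lines are between 0.00209% and 0.00597% of a blastocyst run, near the median level of a member.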
